A study of Mus musculus with 2 samples.

Results

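S100a1, S100a3, S100a4, S100a5, S100a6, S100a8, S100a9, S100a10, S100a11 and S100a13 are members of the S100 family of calcium-binding proteins, and their mRNA levels were compared between the Ecrg4-binding clone BaF/3 (#BEB1) and its parental Ba/F3 cells. The 10 genes were chosen on the array signals of these same cells, so their levels and differences are a description and carry no test. They were read by 12 spots, 1 spot for each of 12 probes, among the 43020 non-control spots of the array, which carry 31829 gene names. The array held 8 further S100 genes, which were not among the members. The parental Ba/F3 line is an interleukin-3-dependent mouse pro-B cell line grown with fetal calf serum and interleukin-3. BaF/3 (#BEB1) was derived from it by infecting the cells with a retroviral cDNA library of the rat glial line CG4, sorting them repeatedly for binding of an Ecrg4–Fc fusion protein and keeping a single clone. The clone's history therefore differs from that of the parental cells by the retroviral infection, any library insert, the repeated sorting and expansion, and cloning. These cannot be told apart here. Total RNA of each cell line was hybridised, after cyanine 3 labelling, to 1 Agilent microarray of the mouse transcriptome, both on 1 slide, so that no difference has a replicate check.

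S100 proteins are small cytosolic proteins that carry a pair of EF-hand loops and form dimers. Most of them, though not all, bind calcium through these loops and then expose a surface for partner proteins. S100a8 and S100a9 form calprotectin, the abundant calcium- and zinc-binding complex of neutrophils and monocytes, which is released at sites of inflammation and signals through Tlr4. S100a10 and S100a11 bind annexins, while most of the genes lie side by side in the genome in a cluster that mammals share.

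Which array belongs to which cell line differs between the deposited sources. Array A stands for the one listed under BaF/3 (#BEB1) in the authors' normalised table but under the parental cells in the scanner output, and array B for its counterpart. The scaled signals of array A had a Pearson correlation across probes of 0.999996 with the table's BaF/3 (#BEB1) column and of 0.982285 with its parental column, and those of array B of 0.982286 and 0.999998 with the same columns. Differences are therefore log2 values of array A minus those of array B. A positive one means higher in BaF/3 (#BEB1) by the table, and higher in the parental cells by the scanner output. Olr1, which encodes the Ecrg4-binding receptor LOX-1 that the study cloned, had a scaled log2 signal of 3.11 on array A and −1.90 on array B, a difference of 5.01. Among all genes measured on both arrays, 0 lay further towards array A than Olr1. The study describes LOX-1 mRNA as higher in BaF/3 (#BEB1), which is the direction of the table. That description rests on the study's own microarray result, so it is no separate check of the table. The study also isolated LOX-1 from a cDNA library made from BaF/3 (#BEB1), which compares no levels between the cell lines. Whether array A or array B is the clone was not settled.

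In all, 14832 genes were well above background on both arrays, and their median difference was −0.02, with the central 95% between −1.52 and 1.15. A probe was counted as well above background as marked by the scanner software, and the lowest signal so marked was 27.6 (array A) and 22.9 (array B). For the 211 probes printed at 10 spots each, the SD of the difference between spots had a median of 0.05 and a 95th percentile of 0.21, which covers the spread within a slide but not that between cultures. The labelled cell type was only partly borne out. The components of the interleukin-3 receptor and its signalling were all above background (6 of 6 genes). Of 16 pro-B cell genes on the array only Cd79b, Vpreb1, Vpreb3 and Ptprc were, while Cd79a, Pax5, Ebf1, Rag1, Rag2 and Il7r were above background on neither array.

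Of the 10 S100 members, 8 were measured on both arrays, S100a8 was above background on array B alone and S100a3 on neither array. Among the 8, S100a9, S100a6 and S100a4 were higher on array B by at least 2-fold and 0 were so on array A. Over all measured genes, 7.31% (1084 of 14832) were higher on array B by at least 2-fold and 3.84% (570 of 14832) on array A. As the members were chosen with these signals known, nothing is read from the contrast of the shares. The differences of the 8 genes ran from −5.90 to 0.85 with a median of −0.60, and 3 lay above 0 and 5 below it. The family thus did not move as a block on these arrays, and S100a11 and S100a9 lay on opposite sides.

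**Figure D1:**
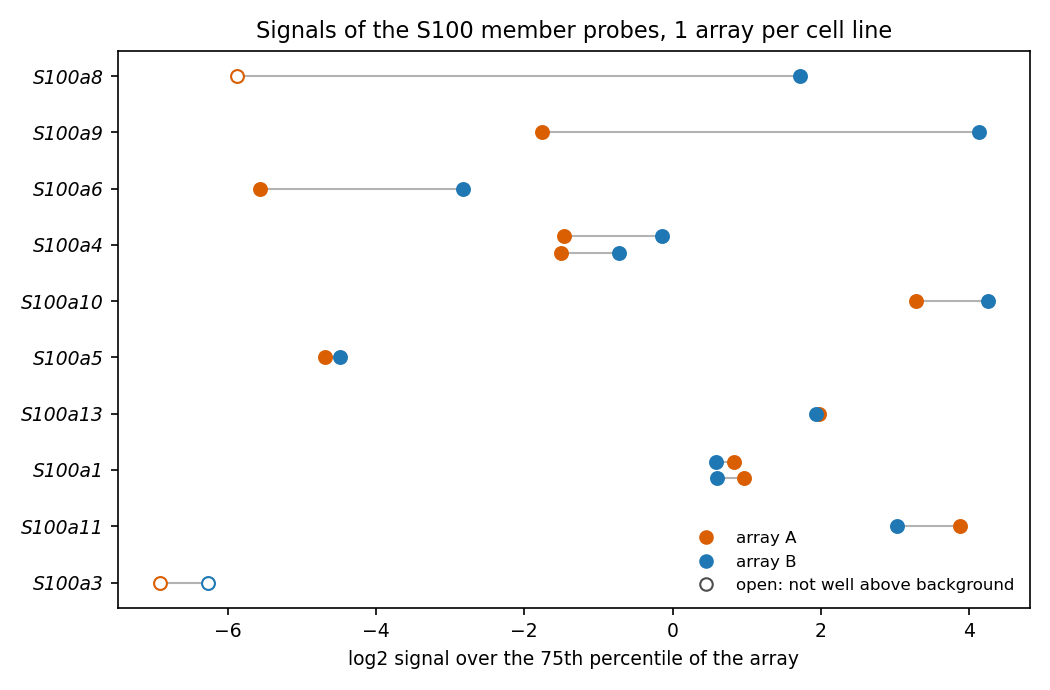
Signal of each of the 12 S100 member probes on array A (orange) and array B (blue), as log2 of the signal over the array's 75th percentile (x axis), with a grey line joining the readings of 1 probe. Open points were not well above background; S100a8 and S100a9 show the widest gaps, and S100a4 and S100a1 have 2 probes each.

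The calprotectin genes stood out by size. S100a9 was read by a probe at chr3:90496573-90496632 (mm9, minus strand), and S100a8 by a probe at chr3:90473778-90473837 (mm9, plus strand). Their first 30 of 60 bases are shown, because each gene's value rests on that single probe, together with those of S100a6.

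S100a8: cttgttcagagaattggacatcaatagtga
S100a9: gtctaaagggaatggcttactcaatggcct
S100a6: taacaaggatcaggaagtaaacttccagga

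The longest run of bases shared by probes of different members was 11 (between S100a1 and S100a5), and 0 other probes on the array shared a run of 20 bases with a member probe. The S100a9 and S100a8 probes thus had no near copy on the array.

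The S100a9 spot had a background-subtracted signal of 444 ± 44.8 on array A and 18995 ± 1900 on array B, where the error is the one the scanner software assigned to the spot. Scaled to each array's 75th percentile, its log2 level was −1.76 on array A against 4.14 on array B, a difference of −5.90 ± 0.20, or 59.6-fold higher on array B. S100a9 was thus well above background on both arrays and far brighter on array B. Among all genes measured on both arrays, 1 lay further towards array B, the gene model Gm2475 (−6.25), which was picked out after its value was seen.

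S100a8, the partner of S100a9 in calprotectin, had a signal of 25.7 ± 6.42 on array A, which was not well above background, and of 3564 ± 356 on array B. Its signal on array B was therefore at least 180-fold higher than the lowest that array A could register as above background. Of the 1699 genes that were above background on exactly 1 array, 911 were so on array B alone and 788 on array A alone. Only the 911 could have a bound towards array B, and 483 of them had one of 2-fold or more. These 483 were 28.4% of the 1699, and 0 genes had a larger bound in that direction than S100a8. That bound fell to 40.0-fold without background subtraction and to 47.5-fold with normexp correction, and in both settings it equalled the measured difference (−5.32 and −5.57). Both subunits of calprotectin were thus high on array B, the parental cells by the table and the clone by the scanner output. In bulk RNA of a cell line, fewer cells expressing a gene and less of its mRNA per cell cannot be told apart.

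**Figure D2:**
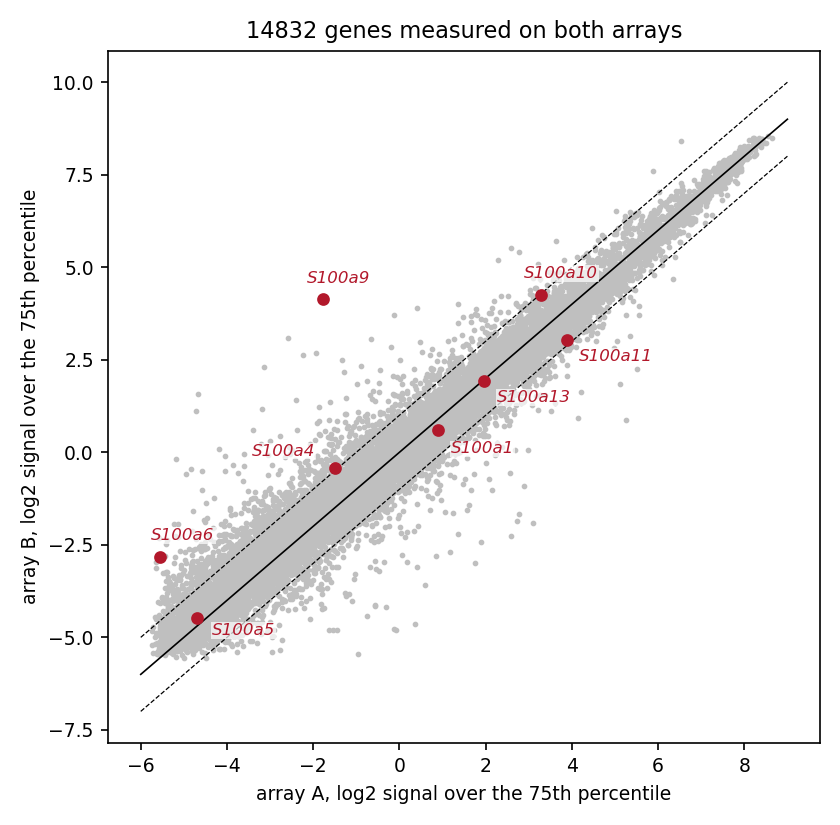
Scaled log2 signal on array A (x axis) against array B (y axis) of the 14832 genes measured on both arrays, with the 8 measured S100 members in red; the solid line marks equal levels and the dashed lines 2-fold differences. S100a9 and S100a6 lie far above the upper dashed line, and S100a8 is not drawn because it was not well above background on array A.

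S100a6 encodes calcyclin, which is typical of proliferating fibroblasts and epithelial cells. Its signal was 31.9 ± 6.76 on array A, just above the lowest measurable signal there, against 152 ± 16 on array B. On the scaled log2 scale this was −5.56 on array A against −2.83 on array B, a difference of −2.73 ± 0.34, or 6.65-fold higher on array B, and 50 measured genes lay further in that direction. The gene was dim on both arrays, and its difference shrank to −1.45 with normexp correction and to −1.36 without background subtraction.

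S100a4, also called metastasin, binds non-muscle myosin and is known for its part in cell motility. Its 2 probes gave signals of 547 ± 55.0 and 527 ± 53.3 on array A and of 981 ± 98.2 and 658 ± 66.1 on array B. The probe at chr3:90409908-90409967 gave a difference of −1.32 and the one at chr3:90409734-90409793 a difference of −0.80 (mm9, plus strand). Their mean was −1.06, or 2.09-fold higher on array B. S100a4 therefore lay at the 2-fold limit, with 1 probe on either side of it, and its difference was −0.77 when each array was scaled to its median.

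S100a4, first: ggcttcttcgcacatgtgcacagtgctgag
S100a4, second: ttccaggagtactgtgtcttcctgtcctgc

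These are the first 30 of 60 bases of the S100a4 probes, shown because they disagree on the 2-fold limit.

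The annexin-binding members were bright on both arrays and differed in opposite directions. S100a10, which forms a heterotetramer with Anxa2 at the plasma membrane, had a signal of 14595 ± 1460 on array A and of 20720 ± 2070 on array B. Its scaled log2 levels were 3.28 on array A and 4.26 on array B, a difference of −0.98 ± 0.20, or 1.98-fold higher on array B. S100a10 was just inside the 2-fold limit and passed it under quantile scaling (−1.09) and when scaled to probes above background on both arrays (−1.07). S100a11, which binds Anxa1, had a signal of 22226 ± 2220 on array A and of 8847 ± 885 on array B. Its scaled log2 levels were 3.88 on array A and 3.03 on array B, a difference of 0.85 ± 0.20, or 1.8-fold higher on array A. It was the only member that any setting placed past 2-fold towards array A, with 1.14 when each array was scaled to its median.

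The other members differed little between the arrays. S100a13, a copper-binding member that takes part in the release of Fgf1 and Il1a, had signals of 5904 ± 590 on array A and 4120 ± 412 on array B, which after scaling differed by 0.04 ± 0.20 (−0.03 with quantile scaling). S100a1, best known as a regulator of calcium handling in heart muscle, had signals of 2669 ± 267 and 2941 ± 294 for its 2 probes on array A and of 1610 ± 161 and 1643 ± 164 on array B. Its scaled probes differed by 0.25 and 0.36, a mean of 0.31. The raw signals of S100a13 and S100a1 were higher on array A, where the 75th percentile was 1506 against 1080 on array B, and the gap shrank after scaling to it. S100a5, known from olfactory neurons, was dim with 58.3 ± 8.32 on array A and 48.5 ± 6.93 on array B, a scaled difference of −0.21 ± 0.29. Its sign changed to 0.08 with median scaling and 0.04 with quantile scaling. S100a3, a protein of the hair cuticle, had 12.5 ± 5.84 on array A against 14 ± 5.0 on array B and was above background on neither array, so no difference is given.

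**Figure D3:**
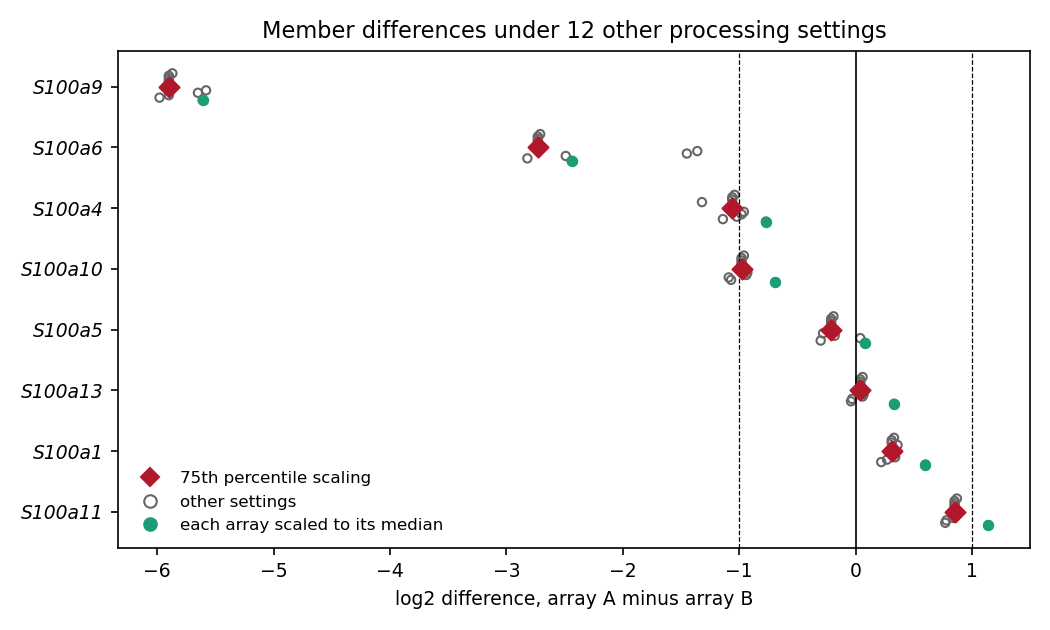
Log2 difference, array A minus array B (x axis), for the 8 measured S100 members under the 75th percentile scaling (red diamonds) and 12 other settings (circles), with scaling of each array to its median in green; dashed lines mark 2-fold differences. S100a9 stayed between −5.98 and −5.58, S100a6 moved furthest, and median scaling moved all members towards array A.

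Of the 8 other S100 genes on the array, S100a16 was measured on both arrays and S100a2 on array B alone. One S100a16 probe had a signal of 3538 ± 354 on array A and 1553 ± 155 on array B, a scaled difference of 0.71 ± 0.20, while its other probe was above background on neither array. S100a2 had 23.3 ± 8.56 on array A, not well above background, and 46.5 ± 8.11 on array B, which made it at least 2.35-fold higher on array B and at least 1.46-fold without background subtraction. The remaining S100a7a, S100a7l2, S100a14, S100b, S100g and S100z were above background on neither array. The fused S100 genes of the epidermis were likewise not detected (Flg, Flg2, Rptn, Tchh, Tchhl1 and Crnn), apart from Hrnr, which was above background on array A alone by at least 1.16-fold. S100 mRNA was therefore detected for a subset of the family only. Of all probes on the array, 49.4% were well above background on array A and 49.9% on array B. Nothing particular to the family is therefore read from its partial detection.

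The position of the members was then set beside their differences. The probes of 8 members lay within 182 kb of chromosome 3 (mm9), while S100a10 and S100a11, 38.4 kb apart, lay in a second group 2.83 Mb from S100a9. Within the main cluster, the differences changed from gene to gene. S100a5 (−0.21) lay 5.74 kb from S100a4 (−1.06) and 2.52 kb from S100a6 (−2.73). S100a8 and S100a9 were 22.8 kb apart, and S100a8 was 55.6 kb from S100a6, with S100a7a, not above background on either array, between them. Thus the members with the widest gaps, S100a8, S100a9 and S100a6, lay at one side of the cluster and S100a1 and S100a13 at the other, with S100a5 as an exception beside S100a6.

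Other genes around the cluster were then compared. Within 100 kb of a member probe there were 14 other genes, of which 5 were measured on both arrays: the RNA-binding factor Ilf2 (0.26), the vesicle protein gene Snapin (−0.14), 2500003M10Rik (0.20), S100a16 (0.71) and Gm5278 (0.21). Of these, 0 were at least 2-fold apart, while S100a2 was above background on array B alone and 8 on neither array. Within 1 Mb of the S100a9 probe, 29 of 44 other genes were measured, with a median difference of −0.04 and a range of −2.08 to 0.71. Past 2-fold towards array B were Rab13 (−2.08), Slc27a3 (−1.38) and Chrnb2 (−1.31), which were picked out after their values were seen, and 0 were past it towards array A. These 3 genes, of 29, stand beside 7.31% of all measured genes past 2-fold towards array B, and each lay further from 0 than S100a4.

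**Figure D4:**
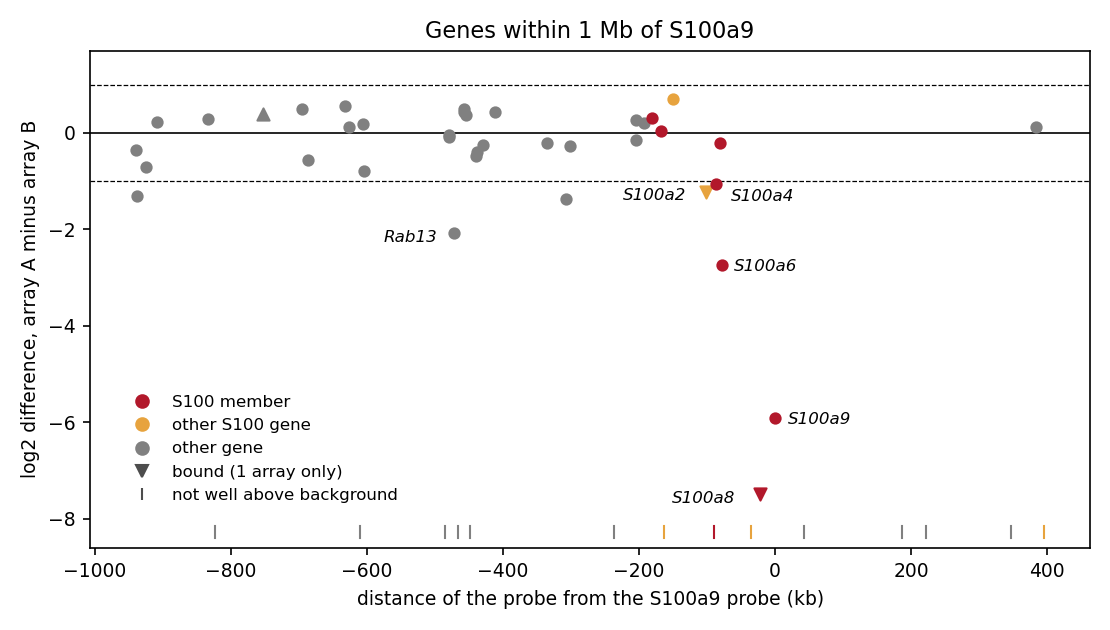
Log2 difference, array A minus array B (y axis), for genes up to 1 Mb from S100a9, by distance of their probe from the S100a9 probe in kb (x axis). Triangles are bounds of genes above background on 1 array, ticks at the bottom are genes above background on neither; S100a9, S100a8 and S100a6 lie below all other genes of the region that have a value.

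The start regions of S100a8, S100a9 and S100a11 are shown because they are the calprotectin genes, both high on array B, and the member furthest towards array A. The sequences are RefSeq's for GRCm38.p6, each with 250 bases before and 30 bases after the annotated start, read along the gene. Capitals mark matches, on either strand, to the letters of a TATA box (TATAAA), or of sites for C/EBP (TTGCNNAA), STAT (TTCNNNGAA), AP-1 (TGANTCA) or Ets factors (GAGGAA), where neighbouring matches can run together.

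S100a8, chr3:90668821-90669100, plus strand: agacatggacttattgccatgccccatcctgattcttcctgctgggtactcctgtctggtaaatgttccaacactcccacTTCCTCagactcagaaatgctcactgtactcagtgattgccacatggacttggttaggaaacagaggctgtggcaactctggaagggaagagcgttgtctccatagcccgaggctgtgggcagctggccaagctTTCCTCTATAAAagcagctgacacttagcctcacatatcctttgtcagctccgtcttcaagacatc
S100a9, chr3:90695692-90695971, minus strand: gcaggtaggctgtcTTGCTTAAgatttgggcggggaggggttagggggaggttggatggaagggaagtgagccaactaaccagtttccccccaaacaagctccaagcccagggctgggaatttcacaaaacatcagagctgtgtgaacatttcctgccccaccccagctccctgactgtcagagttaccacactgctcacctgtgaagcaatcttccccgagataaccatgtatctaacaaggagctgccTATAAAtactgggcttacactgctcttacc
S100a11, chr3:93520246-93520525, plus strand: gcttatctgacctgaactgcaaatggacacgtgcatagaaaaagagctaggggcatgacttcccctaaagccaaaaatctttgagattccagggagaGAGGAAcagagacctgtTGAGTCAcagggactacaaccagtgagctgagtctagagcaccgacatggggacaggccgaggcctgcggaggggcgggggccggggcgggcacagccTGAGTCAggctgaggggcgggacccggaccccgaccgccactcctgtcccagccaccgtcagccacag

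The S100a8 window held TATAAA at bases −30 to −25 from the annotated start and 2 GAGGAA matches, the nearer of them at −36 to −31, next to the TATA box. The S100a9 window held TATAAA at bases 1 to 6, on the annotated start itself, and 1 TTGCNNAA match at −236 to −229. The S100a11 window held no TATAAA but had 2 TGANTCA matches, at −136 to −130 and at −38 to −32, and 1 GAGGAA match. Of 32851 RefSeq windows of the same length, 13.1% held TATAAA, 10.4% TTGCNNAA, 7.83% TTCNNNGAA, 7.46% TGANTCA and 26% GAGGAA. Such matches describe the letters only, and no binding was measured. Start regions were found for 9 members. Among those not shown, S100a6, S100a5, S100a1 and S100a13 held no match to any of these letters. S100a4 and a window of S100a3, which was not above background, held TATAAA and GAGGAA matches.

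The proteins that S100 members act with were compared in the same way, by lists chosen with earlier results of these data known. Annexins, the calcium-dependent membrane-binding partners of S100a10 and S100a11, varied little. Of 12, 10 were measured and Anxa9 alone was at least 2-fold apart (−1.32), with a median of −0.34. Anxa2, the partner of S100a10, had scaled log2 levels of 5.40 on array A against 5.75 on array B (−0.34), and Anxa1, the partner of S100a11, of 0.18 on array A and 0.74 on array B (−0.56). Both annexins thus differed by less than 2-fold, and Anxa1 in the opposite direction to S100a11.

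Among 14 partner genes, 12 were measured, with a median of −0.07 that was 0.22 with median scaling. The p53 ubiquitin ligase Mdm2 (1.02) was higher on array A by at least 2-fold, but not with quantile scaling or when scaled to probes above background on both arrays (0.93 in each), and 0 were past 2-fold on array B. Cacybp, the calcyclin-binding protein that takes its name from S100a6, differed by 0.49, and Ahnak, a scaffold bound by S100a10 with Anxa2, by −0.37. Fgf1 was above background on array A alone, by at least 1.67-fold, and Il1a on neither array, so that neither of the proteins whose release involves S100a13 was measured on both arrays.

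Receptors and adaptors for extracellular S100 proteins included genes higher on either array. Of 10, 7 were measured, with a median of 0.69. Tlr4, the receptor for calprotectin, had a scaled log2 level of 0.41 on array A and −1.40 on array B (1.81, or 3.51-fold). Cd69, described as a receptor of S100a8 and S100a9 on T cells, had 4.21 on array A and 1.62 on array B (2.58, or 5.99-fold). The Siglec receptor Cd33 was higher on array B (−1.56, or 2.95-fold). Tlr4 and Cd69 thus lay in the opposite direction to S100a8 and S100a9, whereas Ager, the receptor for advanced glycation end products that many S100 proteins bind, was above background on neither array.

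Known regulators of S100a8 and S100a9 transcription differed by less than 2-fold. Of 6, 5 were measured, 0 were at least 2-fold higher on either array, and the median was 0.37. The C/EBP factors of myeloid cells Cebpb (0.74), Cebpd (0.66) and Cebpe (0.37) lay on the side of array A and Spi1, which encodes PU.1, on that of array B (−0.35), and Cebpa was above background on neither array. With median scaling, 1 gene of the list passed 2-fold on array A.

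Other EF-hand genes, such as calmodulins and reticulocalbins, gave a view of calcium-binding proteins outside the family. Of 37, 28 were measured, with a median of −0.08 (0.22 with median scaling) and a range of −1.68 to 0.87. Only the endoplasmic reticulum protein gene Rcn3 (−1.68) was higher on array B by at least 2-fold, and 0 were on array A. Efhd1, a mitochondrial EF-hand protein gene, was above background on array B alone, by at least 10.9-fold, and so was Calml4, by at least 2.26-fold. Both bounds were computed in the main setting only.

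**Figure D5:**
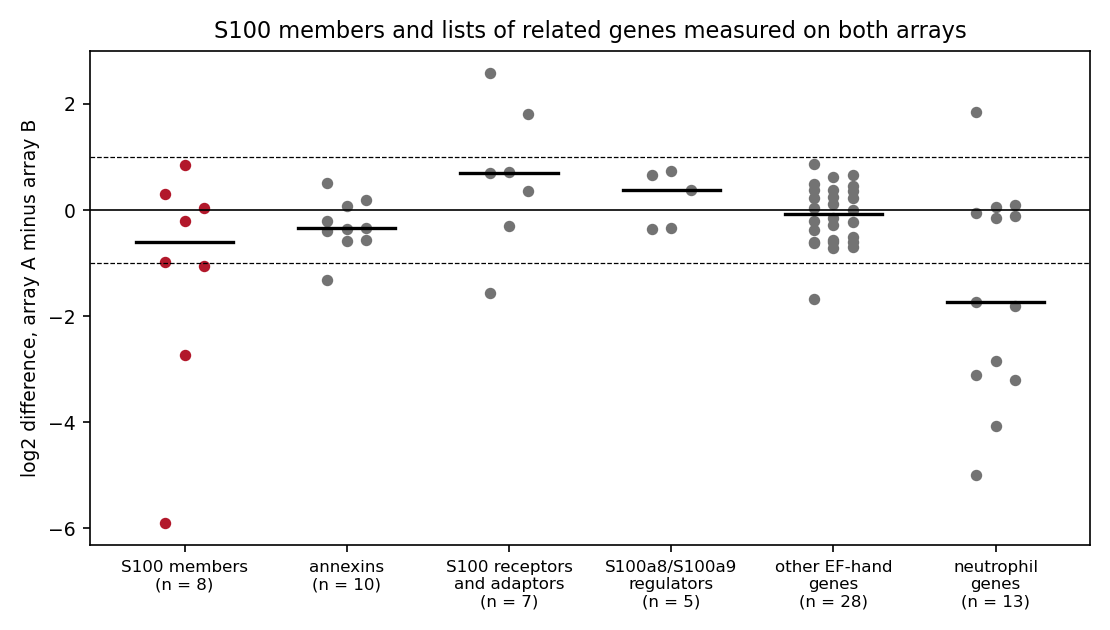
Log2 difference, array A minus array B (y axis), for the measured S100 members and 5 gene lists; each point is a gene, the black bars are medians and the dashed lines mark 2-fold differences. The S100 members span −5.90 to 0.85 and the neutrophil genes −4.99 to 1.85, while 27 of 28 other EF-hand genes lie within 2-fold.

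S100a8 and S100a9 are abundant in myeloid cells, and markers of such cells were therefore set beside them. Of 20 neutrophil genes, 13 were measured, 7 were higher on array B by at least 2-fold and 1 on array A. Without background subtraction, 6 were higher on array B by at least 2-fold. The median was −1.73 (−1.06 with normexp and −0.24 if dim probes were kept). The granule protein genes Mmp8 (−4.99), Ngp (−4.07), Prtn3 (−3.20), Ltf (−3.11) and Mpo (−2.84) were higher on array B. They were dim on array A, with scaled log2 levels from −5.18 (Mmp8) to −4.48 (Ltf). Without background subtraction their differences shrank to between −3.28 (Mmp8) and −1.67 (Mpo), each still past 2-fold. The siderophore-binding Lcn2 (1.85) was higher on array A, while the neutrophil elastase gene Elane differed by 0.10. Summed over the list, the scaled signal was 88.1 on array A against 61.6 on array B, an order set by Lcn2, without which the sums were 41.0 on array A against 48.5 on array B. The other 7 genes, among them the defining neutrophil markers Ly6g, Camp, Cxcr2, Cd177 and Retnlg, were above background on neither array.

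Of 17 macrophage and monocyte genes, 6 were measured, with a median of −0.63 and sums of 8.43 on array A and 5.46 on array B, or 3.2 on array A against 4.35 on array B without Fcgr1. Fcgr1 (2.23) was higher on array A by at least 2-fold and Cd68 (−1.26) on array B, although Cd68 fell short of 2-fold with median scaling (−0.97), with normexp (−0.87) and without background subtraction (−0.78), while Lyz1 was above background on array B alone, by at least 8.59-fold. Of 15 mast cell and basophil genes, 4 were measured, with a median of −2.18 (−0.20 if dim probes were kept) and sums of 13 on array A and 35.6 on array B. Most of these sums was Gata2, without which they were 1.97 on array A against 6.52 on array B. Cpa3 (−5.44), Cma1 (−2.95, or −1.59 without background subtraction) and Gata2 (−1.40) were higher on array B and Hdc (1.67) on array A. Fcer1a was above background on array B alone, by at least 45.7-fold, and Kit and Ms4a2 were on neither array. The proteases Mcpt1, Mcpt2, Mcpt4, Mcpt8, Tpsb2 and Tpsab1 were also above background on neither array. Some granule genes and Fcer1a, the IgE-binding receptor chain of mast cells and basophils, were thus higher on array B as S100a8 and S100a9 were, others were higher on array A or not detected, and their part in the S100 result was not tested.

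The lineage genes of Ba/F3 cells themselves also held differences. Cd79b (−2.30), Vpreb1 (−1.39) and Vpreb3 (−1.38) were higher on array B by at least 2-fold. Vpreb1 and Vpreb3 fell short of it with normexp (−0.94 and −0.92) and without background subtraction (−0.81 and −0.87). The summed signal of the 4 measured of 16 pro-B genes was 7.33 on array A against 5.75 on array B, and 0.377 on array A against 1.63 on array B without the pan-leukocyte gene Ptprc. The receptor subunits Csf2rb (−1.86) and Csf2rb2 (−1.60) were higher on array B, in a list with a median of −0.74 and sums of 78.5 on array A against 175 on array B. Without Csf2rb2 these sums were 40.9 on array A against 85.6 on array B. Of 8 oligodendrocyte lineage genes, to which CG4 cells belong, 4 were measured and 0 were at least 2-fold apart, with a median of −0.15 (0.14 with median scaling) and sums of 1.82 on array A and 2.31 on array B.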

How the data were processed

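Total RNA of 2 cell lines was measured on 1 array each. Agilent Feature Extraction 9.5.1.1, per the submitters' processing notes, gave the deposited spot intensity with its background subtracted. For their table the authors raised any intensity under 1.0 to that value, scaled by the 75th percentile of the chip and deposited log2 values. From the scanner intensity of 43020 non-control spots the same steps were repeated, and values were averaged over the spots of a probe and over the probes of a gene well above background on both arrays (14832 genes). A gene above background on 1 array was given a bound against the lowest signal so marked on the other array, or against its own signal there if that was higher. Bounds were recomputed under other settings for S100a8 and S100a2 only, so those of other genes hold for the main setting. With 1 array per cell line no test was made, and counts of genes at least 2-fold apart are sizes. The number of arrays limits the precision, and the spot errors cover the array only.

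The members and gene lists were chosen with earlier results of these data known. Named genes were the members, all other S100 and fused S100 genes, expressed genes within 100 kb, up to 6 genes past 2-fold in each list and a set of known partners. Alternatives changed the scaling, background correction, filter, outlier marks, probe rule, gene names, fold threshold or used the authors' table. Probe positions are in mm9, as in the scanner output, and no annotation of that build was used. The steps were tested on simulated data. Normexp and quantile scaling were run in limma 3.58.1 (R 4.3.3), and all else in Python 3.11.15 (numpy 2.4.6, pandas 2.3.3, matplotlib 3.10.9).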

Additional observations from a re-analysis of the deposited data

How the results depend on the processing

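Scaling to the median was the setting that moved the members most together. It shifted the median of all measured genes by 0.29 towards array A and placed 1 member, S100a11, at least 2-fold higher on array A, against 0 with the 75th percentile. Over all measured genes, 8.86% were past 2-fold towards array A with median scaling, against 3.84% with the 75th percentile. Nothing is therefore read from that count of members. Of all genes at least 2-fold apart, 34.5% were higher on array A in the main scaling, 69.1% with the median and 26.2% when scaled to probes above background on both arrays. The number of members at least 2-fold higher on array B ranged from 2 to 4 over the 13 alternatives. It was 2 with a threshold of 3-fold, with median scaling, with normexp and without background subtraction, and 4 where S100a10 or the measured value of S100a8 was counted. The share of all measured genes past 2-fold towards array B changed too. It was 7.31% in the main scaling, 3.96% with median scaling, 4.77% with normexp and 4.26% without background subtraction. Quantile scaling gave 6.17%, and scaling to probes above background on both arrays 8.64%. The settings that counted the measured value of S100a8 gave 11.4% (probes above background on at least 1 array) and 8.78% (no filter on dim probes). No share is given for the threshold of 3-fold. Nothing is therefore read from the range of the member count towards array B. Over the 12 settings that changed the values, the difference nearest to 0 was −5.58 for S100a9, −1.36 for S100a6 and −0.77 for S100a4. For dim genes the background correction sets the size, as with S100a6 and the bound of S100a8. Leaving the brightest gene on array A out of the summed marker signals was added after the data were seen. No paired analysis was possible because each cell line had 1 array.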
